A study of Mus musculus with 11 samples.

Results

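Fatty acid oxidation supplies most of the ATP of the adult heart. Long-chain acids are bound in the cytosol by fatty acid binding proteins, joined to coenzyme A by acyl-CoA synthetases, passed into mitochondria as carnitine esters, and shortened there by repeated rounds of dehydrogenation, hydration, dehydrogenation and thiolysis. Electrons leave the first dehydrogenation through the electron transfer flavoprotein. Side enzymes rearrange unsaturated acids, and thioesterases split acyl-CoA back to free acid and coenzyme A. The genes described here were taken by symbol from the array annotation: every symbol that begins with Acad, Acaa, Acat, Acot, Acox, Acsl, Decr, Ech, Eci, Fabp or Hadh, the Cpt genes of the carnitine shuttle, the genes of the electron transfer flavoprotein and its dehydrogenase, and Crat, Crot and Slc25a20. The rule found 41 of the 8146 genes named on the arrays, read by 56 spots. It used symbols and no measured value, but the genes were chosen with earlier results of these data known. All 41 were measured on 9 or more of the 11 arrays and were tested.

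The hearts came from male C57/BL6 mice of the TG1306/1R line, about 60 weeks old, in which a transgene raises angiotensinogen, the precursor of angiotensin II, in the heart. Dil mice (n = 4) were heterozygous carriers (+/-) with a dilated heart, Hyp mice (n = 4) were heterozygous carriers with concentric hypertrophy, and WT mice (n = 4) were littermates without the transgene (-/-). None was treated, and the RNA was of both ventricles and the septum. Carrier hearts had been sorted into Dil and Hyp by chamber shape, cardiac weight index and hypertrophic markers, so these measures describe the groups. The cardiac weight index, heart over body weight, averaged 8.23 ± 0.665 mg/g over the Dil mice, 5.54 ± 0.180 mg/g over the Hyp mice and 4.53 ± 0.287 mg/g over the WT mice (SD, n = 4 each). The labels give Hyp3 an index of 5.3 mg/g on 1 array and 5.6 mg/g on another, and their mean was used. All carriers are of 1 line, and the promoter of the transgene is not given in the sources used here.

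Each of the 11 cDNA arrays held the labelled RNA of 2 mice that carry the same number, called a set here: 3 arrays compared Dil with WT (sets 1, 3 and 4), 4 compared Hyp with WT and 4 compared Dil with Hyp. An array of Dil and WT in set 2 was not analysed here. The value per spot is a log ratio of the 2 dyes, taken as log2 of Cy5 over Cy3 and turned so that a positive value means higher in the first-named mouse. No source used here states the log base or the direction. The direction is likely because Agt, the angiotensinogen gene, was above 0 on 3 of 3 Dil over WT arrays and 2 of 3 Hyp over WT arrays that measured it, and Nppb, a hypertrophic marker, on 3 of 3 and 4 of 4. With the opposite direction every sign below would turn, and with natural logarithms every fold would be too close to 1. In set 3 the arrays did not close for Agt: it was at -0.237 in the mouse labelled Hyp3 over WT3, although it was at 2.28 in Dil3 over WT3 and 0.577 in Dil3 over Hyp3. A ratio carries no expression level, so genes are compared here by their changes alone. In whole ventricles fewer cells of a type and less RNA per cell cannot be told apart.

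To show what lies upstream of the genes the results turn on, the 250 bases before the start of 5 of the 8 genes that fell in Dil hearts are printed. Those of Acadm, which did not pass in limma's moderated test (adjusted p = 0.0814), are printed beside them. Acadm was picked by name, and Eci1 (0.0646) and Cpt2 (0.0789) lay closer to the threshold. Sequences and all coordinates given here are those of RefSeq on GRCm38.p6; the sequences run 5′ to 3′ along the gene, and 33 of the 41 genes had an entry. Capitals mark 3 motifs on either strand: the GC box CCGCCC, the CCAAT box CCAAT, and AGGTCA, the half-site of many nuclear receptors.
Ech1, chr7:28825088-28825337, plus strand: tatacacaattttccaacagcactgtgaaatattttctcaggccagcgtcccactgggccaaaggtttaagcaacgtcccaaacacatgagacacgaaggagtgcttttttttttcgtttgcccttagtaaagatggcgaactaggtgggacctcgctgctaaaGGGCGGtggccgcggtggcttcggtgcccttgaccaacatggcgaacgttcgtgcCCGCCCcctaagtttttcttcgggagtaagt
Hadh, chr3:131272102-131272351, minus strand: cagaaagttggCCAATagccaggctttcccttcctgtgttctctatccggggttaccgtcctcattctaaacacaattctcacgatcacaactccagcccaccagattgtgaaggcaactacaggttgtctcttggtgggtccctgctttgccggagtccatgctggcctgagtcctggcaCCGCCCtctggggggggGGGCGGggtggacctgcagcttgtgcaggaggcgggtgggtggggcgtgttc
Acot2, chr12:83987611-83987860, plus strand: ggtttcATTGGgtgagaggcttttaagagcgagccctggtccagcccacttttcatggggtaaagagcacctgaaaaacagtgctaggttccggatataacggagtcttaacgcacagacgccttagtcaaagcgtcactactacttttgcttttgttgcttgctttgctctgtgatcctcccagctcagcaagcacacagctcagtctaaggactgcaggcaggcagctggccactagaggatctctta
Slc25a20, chr9:108661886-108662135, plus strand: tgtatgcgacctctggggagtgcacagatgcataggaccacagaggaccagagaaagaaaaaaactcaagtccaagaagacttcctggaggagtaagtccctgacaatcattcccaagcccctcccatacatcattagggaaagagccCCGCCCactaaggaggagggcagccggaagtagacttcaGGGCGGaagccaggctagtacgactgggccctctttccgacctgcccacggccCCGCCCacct
Etfdh, chr3:79628768-79629017, minus strand: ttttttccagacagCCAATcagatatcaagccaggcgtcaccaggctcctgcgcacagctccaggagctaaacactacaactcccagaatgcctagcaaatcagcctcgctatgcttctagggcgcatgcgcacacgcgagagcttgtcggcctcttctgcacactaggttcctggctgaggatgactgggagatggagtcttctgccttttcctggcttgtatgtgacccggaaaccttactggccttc
Acadm, chr3:153944644-153944893, minus strand: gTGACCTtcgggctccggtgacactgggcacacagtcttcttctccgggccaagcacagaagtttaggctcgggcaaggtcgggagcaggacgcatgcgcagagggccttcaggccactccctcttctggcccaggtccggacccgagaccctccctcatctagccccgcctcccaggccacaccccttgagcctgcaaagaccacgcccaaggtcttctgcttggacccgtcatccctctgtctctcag
Ech1 and Hadh hold 2 GC boxes each and Slc25a20 holds 3. Hadh, Acot2 and Etfdh hold a CCAAT box, the last 2 without a GC box. The half-site was found in Acadm alone of these 6. Over the 33 genes with an entry, 22 (66.7%) held a GC box, against 32.7% of the 32851 promoters of the table. Each of the 33 genes was counted once, whereas the table was counted by entry and not limited to genes of the arrays. The shares are therefore not fully alike in base. A CCAAT box was found in 15 (45.5%), against 33.85% of all promoters, and the half-site in 6 (18.2%), against 14.02%. The direct repeat AGGNCANAGGNCA, the form bound by peroxisome proliferator-activated receptors, was found in 1 of the 33, Fabp1 on chromosome 6, against 0.338% of all promoters. It reads AGGCCATAGGTCA there, on the minus strand. The motifs were searched one by one and may overlap, and the repeat can contain the half-site. A match describes letters in this window and is not a bound site.

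Dilated hearts were compared with WT hearts first. Of the 41 genes, 8 (19.5%) were lower in Dil hearts and 0 were higher at an adjusted p under 0.05, against 1.15% of all 12097 features tested that were lower and 2.15% that passed in either direction. The largest change was that of Ech1, which was 0.513 times the WT level, and the other 7 lay between 0.589 and 0.687 times the WT level. The 8 genes cover the carnitine shuttle (Slc25a20, Crat), electron transfer (Etfdh), the later steps of the cycle (Hadh, Acaa2), the handling of unsaturated acids (Ech1, Decr1) and a thioesterase (Acot2). No fatty acid binding or acyl-CoA synthetase gene was among them. At an unadjusted p under 0.05, 20 genes were lower (48.8%), against 8.15% of all features, and 1 was higher, against 8.09%. The median change of the 41 genes was -0.25 on the log2 scale and 35 lay below 0, whereas the median of all features was 0.0029 and 5920 of 12097 lay below 0.

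**Figure D1:**
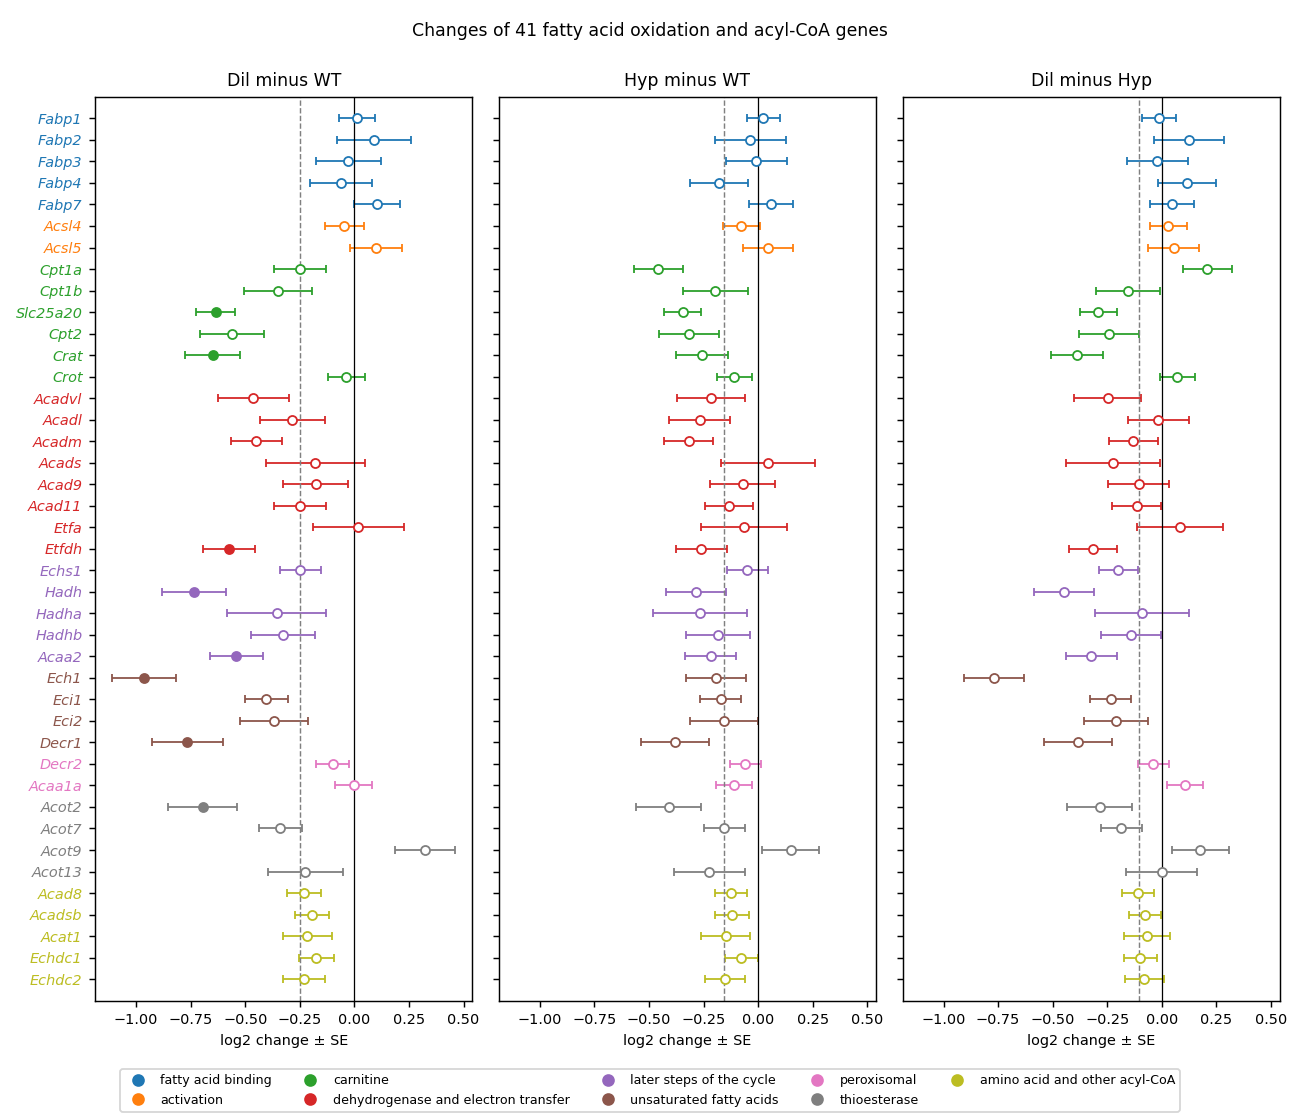
Log2 changes with their standard errors (horizontal axis) of the 41 genes (vertical axis, in the order of their roles, coloured by role) for Dil minus WT, Hyp minus WT and Dil minus Hyp. Filled points passed the test at an adjusted p under 0.05, which 8 did in Dil minus WT and 0 in the other panels, and the dashed line is the median of the 41 genes.

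In the plot of all 41 changes the 8 genes that passed lie in 5 of the 9 roles. Values near 0 or above it are found among the binding and activating genes and also in other roles (Crot, Etfa, Decr2, Acaa1a, Acot9), and no test compared the roles. Errors are standard errors of 1 fit over all arrays with 4 mice per group, in which mice entered as random effects, and adjusted p-values are from limma's moderated test with Benjamini-Hochberg adjustment over all features.

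The carnitine shuttle carries long-chain acyl groups across the inner mitochondrial membrane. Slc25a20, the carnitine-acylcarnitine carrier (chr9:108662136-108684642), was at -0.88, -1.10 and -0.086 in sets 1, 3 and 4 on the Dil over WT arrays. It fell by 0.64 ± 0.090 (adjusted p = 0.00967), and its set 4 ratio was close to 0. The low ratios were those with the carrier mouse in Cy5: Dil was in Cy5 in sets 1 and 3 and in Cy3 in set 4. Without a dye term its adjusted p was 0.122. Crat, the carnitine acetyltransferase of the matrix (chr2:30400476-30416017), was at -0.16, -0.58 and -0.98 in sets 1, 3 and 4 and fell by 0.65 ± 0.13 (adjusted p = 0.0311). All 3 of its ratios were below 0, the lowest in set 4. Cpt2, which returns the acyl group to coenzyme A on the matrix side, was at -0.27, -0.92 and -0.43 in sets 1, 3 and 4, again below 0 on every array, but its change of -0.56 ± 0.15 did not pass (adjusted p = 0.0789).

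Cpt1b and Cpt1a code for the muscle and liver forms of carnitine palmitoyltransferase I, the step that malonyl-CoA inhibits. Cpt1b was at 0.29, -0.46 and -0.31 in sets 1, 3 and 4 and changed by -0.35 ± 0.16 (adjusted p = 0.294), with set 1 on the other side of 0 from sets 3 and 4. Cpt1a was at -0.47, -0.075 and 0.034 in sets 1, 3 and 4 and changed by -0.25 ± 0.12 (adjusted p = 0.331). Its lowest ratio was in set 1. Crot, the carnitine octanoyltransferase of peroxisomes, changed by -0.038 ± 0.085. In all, 2 of the 6 carnitine genes fell, all 6 had values below 0, and their median was -0.45.

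Acyl-CoA dehydrogenases open each round of the cycle and differ in the chain length they take. Acad8 and Acadsb, the dehydrogenases of amino acid breakdown, are given further on. None of the other 6 measured passed: the very long-chain gene Acadvl changed by -0.46 ± 0.16, the medium-chain gene Acadm by -0.45 ± 0.12 (adjusted p = 0.0814), the long-chain gene Acadl by -0.28 ± 0.15, Acad11 by -0.25 ± 0.12, the short-chain gene Acads by -0.18 ± 0.23 and Acad9, which also serves complex I assembly, by -0.18 ± 0.15. Acadm was at -0.29, -0.48 and -0.65 in sets 1, 3 and 4 on the Dil over WT arrays, below 0 on all 3. Etfdh codes for the ubiquinone oxidoreductase that passes their electrons to the respiratory chain (chr3:79603788-79628767). It was at -0.29, -0.62 and -0.87 in sets 1, 3 and 4 and fell by 0.57 ± 0.12 (adjusted p = 0.0412), while Etfa, a subunit of the flavoprotein that feeds it, changed by 0.018 ± 0.21. The ratios of Etfa ran from -1.32 in set 3 to 0.79 in set 4.

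The hydratase, hydroxyacyl-CoA dehydrogenase and thiolase steps follow. Hadh, the dehydrogenase for short and medium chains (chr3:131233419-131272101), was at -0.26, -0.92 and -0.85 in sets 1, 3 and 4 on the Dil over WT arrays. It fell by 0.73 ± 0.15 (adjusted p = 0.0317), with sets 3 and 4 close together and set 1 nearer to 0. Acaa2, the mitochondrial thiolase (chr18:74779212-74806207), was at -0.39, -0.81 and -0.69 in sets 1, 3 and 4 and fell by 0.54 ± 0.12 (adjusted p = 0.049). Its 2 spots disagreed, at -0.037 and -1.04, so the value of the gene is a mean of unlike readings. Hadha and Hadhb, the subunits of the trifunctional protein for long chains, changed by -0.36 ± 0.23 and -0.33 ± 0.15 and did not pass. The 95% interval of Hadha ran from -0.86 to 0.14. Echs1, the short-chain hydratase, changed by -0.25 ± 0.094. All 5 genes of these steps were below 0 (median -0.36) and 2 fell.

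Double bonds in natural fatty acids need extra isomerases and a reductase. Ech1, the dienoyl-CoA isomerase (chr7:28825338-28832239), was at -0.60, -1.10 and -1.31 in sets 1, 3 and 4 on the Dil over WT arrays, the lowest in set 4. It fell by 0.96 ± 0.14, to 0.513 times the WT level (adjusted p = 0.0132). Decr1, the mitochondrial dienoyl-CoA reductase (chr4:15917240-15945377), was at -0.29, -0.98 and -1.27 in sets 1, 3 and 4 and fell by 0.76 ± 0.16 (adjusted p = 0.0416). Both genes were below 0 on every Dil over WT array and lowest in sets 3 and 4. Eci1 and Eci2, the enoyl-CoA isomerases of mitochondria and of both mitochondria and peroxisomes, changed by -0.40 ± 0.099 (adjusted p = 0.0646) and -0.37 ± 0.16 and did not pass. The 4 genes had a median of -0.58.

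Among the thioesterases, Acot2, a mitochondrial enzyme for long chains (chr12:83987861-83993877), was at -0.23, -1.04 and -0.91 in sets 1, 3 and 4 on the Dil over WT arrays and fell by 0.70 ± 0.16 (adjusted p = 0.0486). Its transcript is much like that of its neighbour Acot1, and a cDNA spot may read both. Acot7, a cytosolic thioesterase, changed by -0.34 ± 0.098 and Acot13 by -0.22 ± 0.17, and neither passed. Acot9, another mitochondrial thioesterase, went the other way at 0.32 ± 0.14 (adjusted p = 0.272) and was the gene that lay above 0 at an unadjusted p under 0.05. The peroxisomal genes Decr2 and Acaa1a changed by -0.099 ± 0.075 and -0.0041 ± 0.086. Acad8, Acadsb and Acat1, which serve branched-chain amino acid and ketone body breakdown, and Echdc1 and Echdc2 ranged from -0.23 to -0.18, and 0 of these 5 passed.

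Fatty acid binding and activation lie ahead of the mitochondrial steps. Fabp3, the heart form of the binding protein, was at 0.0014, 0.77 and -0.57 in sets 1, 3 and 4 on the Dil over WT arrays. Fabp4, the form of adipocytes and capillary endothelium, was at 0.058, 0.82 and -0.37 in sets 1, 3 and 4. Both were above 0 on the set 3 array, where Dil was in Cy5, and below 0 on the set 4 array, where it was in Cy3. The fitted changes were -0.029 ± 0.15 for Fabp3 (95% interval -0.35 to 0.30) and -0.061 ± 0.14 for Fabp4 (95% interval -0.37 to 0.25), intervals that still allow changes as large as those of several oxidation genes. Fabp1, Fabp2 and Fabp7, the liver, intestinal and brain forms, ranged from 0.013 to 0.10. The acyl-CoA synthetase genes Acsl4 and Acsl5 changed by -0.047 ± 0.089 and 0.099 ± 0.12. None of these 7 genes passed, and Acsl1, the main form of heart, was not analysed here.

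**Figure D2:**
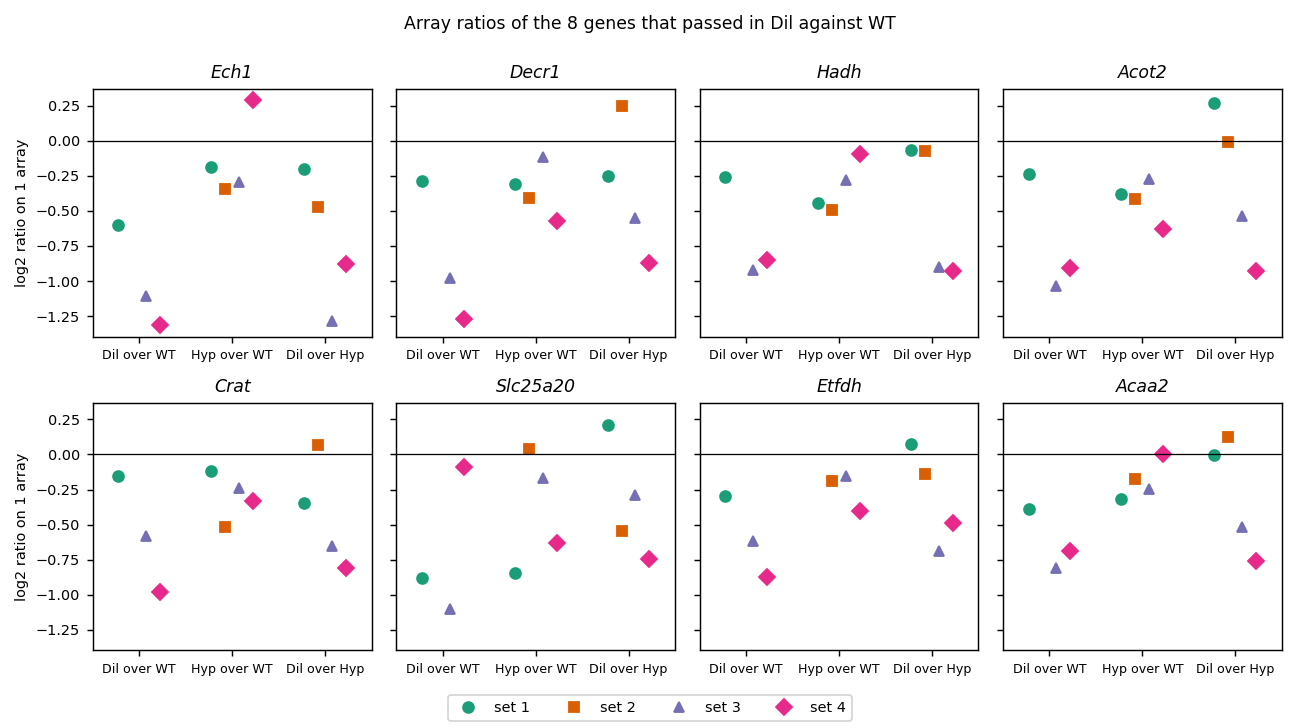
Log2 ratio on each single array (vertical axis) for the 8 genes that passed in Dil minus WT, by kind of array (horizontal axis) and set (symbols). All 8 genes lie below 0 on the 3 Dil over WT arrays, and in sets 3 and 4 on the Dil over Hyp arrays, where the ratios of sets 1 and 2 lie nearer to 0 or above it for most.

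The single-array ratios of the 8 genes, plotted by kind of array and set, show how far the change rests on sets 3 and 4. For 7 of them the ratio of set 1 was the highest of the 3 Dil over WT ratios, and for Slc25a20 that of set 4 was. A change in each set was also estimated from the arrays of that set alone, with a shared dye term. All 8 genes were below 0 in 4 of 4 sets on this measure. They had been picked by a fit of the same arrays, so these signs are not a separate test of the fall. The set without a Dil over WT array was estimated from its Hyp over WT and Dil over Hyp arrays alone. Ech1 was at -0.65, -0.82, -1.26 and -1.08 in sets 1 to 4, and Acaa2 at -0.35, -0.047, -0.79 and -0.71. The median of the 41 genes was -0.21, -0.14, -0.31 and -0.36 in sets 1 to 4, and the medians of all features lay between -0.0070 and 0.0049.

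**Figure D3:**
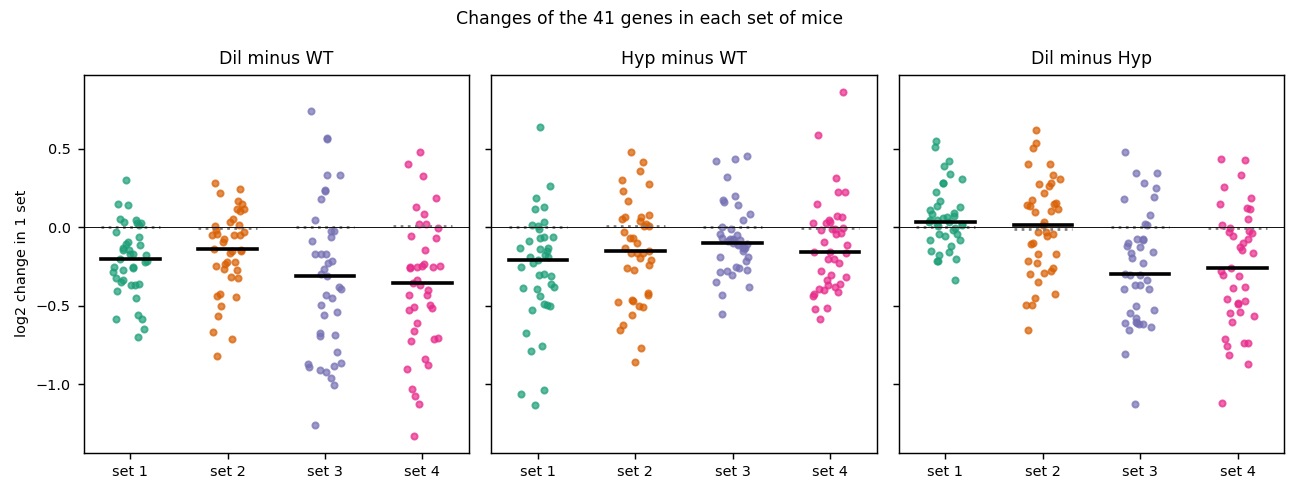
Log2 change of each of the 41 genes within each set of mice (vertical axis; 1 point per gene, sideways spread without meaning) for Dil minus WT, Hyp minus WT and Dil minus Hyp. Black bars are medians of the 41 genes and dotted bars medians of all features, and in Dil minus WT the black bars lie at -0.21, -0.14, -0.31 and -0.36.

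Pairs of arrays of 1 comparison were compared by Pearson correlation over all features measured on all 11 arrays. In Hyp over WT, r was 0.343 and 0.473 with the same dye orientation and -0.258 to -0.097 with opposite ones. In Dil over WT it was 0.293 (same), 0.128 and 0.0087 (opposite). In Dil over Hyp it was 0.194 and -0.166 (same) and -0.252 to 0.237 (opposite). The main fit held a dye term, and the part of dye in these values was not tested. The spread of values also differed between sets. The scaled median absolute deviation over all non-control spots was 0.335 and 0.354 on the Dil over WT arrays of sets 3 and 4, against 0.172 on that of set 1. With all arrays scaled to the same spread, 1 of the 41 genes passed, Ech1 (-0.82, adjusted p = 0.0164), 69 of all features passed, and the median change of the 41 was -0.20. Without set 1, 2, 3 or 4 in turn, 5, 3, 0 and 0 of the 41 genes passed (119, 83, 0 and 12 of all features). With 1 estimate per set in place of the arrays, 0 of 41 and 6 of all features passed, and with the 3 Dil over WT arrays alone 0 and 7. The median change stayed between -0.30 and -0.17 under all alternatives.

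For 14 of the 41 genes more than 1 spot carried the symbol. The spots of Ech1 changed by -1.04 and -0.88 (r = 0.938 over the arrays) and those of Slc25a20 by -0.65 and -0.61 (r = 0.976). The fitted changes of the Hadh spots were also close, at -0.68 and -0.79, but their ratios were not alike from array to array (r = 0.348). The 3 spots of Acadl lay between -0.33 and -0.26. They disagreed for Acaa2 and for Eci1, whose spots changed by 0.041 and -0.85. Over 11 arrays or fewer the median correlation between spots of a gene was 0.564 over 16 spot pairs, and 7 pairs lay below 0.5, Hadh and Eci1 among them, which describes arrays that share mice. Decr1, Crat, Acot2 and Etfdh had 1 spot each. Those of Decr1 and Crat shared a group of 12 positions within the print block with 1 spot each of Ech1, Hadh, Eci1 and other genes. The spot in that group was the lower one for Hadh, Eci1, Acadl, Acadm, Acads and Acadvl and the higher one for Ech1 and Cpt1a. Both spots of Slc25a20 also shared a group of 12 positions, a different one. A part of print position in these changes was not tested.

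**Figure D4:**
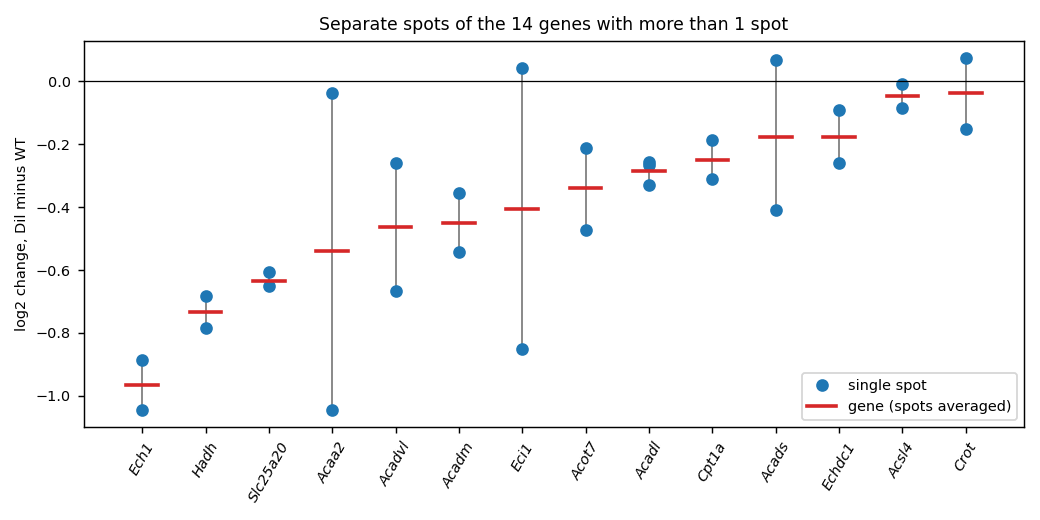
Log2 change in Dil minus WT (vertical axis) of each single spot (blue points) for the 14 genes with more than 1 spot, ordered by the change of the gene (red bars, spots averaged). The fitted changes of the spots of Ech1, Hadh and Slc25a20 lie close together, whereas those of Acaa2 (-0.037 and -1.04) and Eci1 (0.041 and -0.85) lie far apart.

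The plot of single spots shows fitted changes and not the agreement from array to array. For Acaa2, 1 of the 2 spots lay near 0. Etfdh, like Acad9, Acadsb, Acat1, Echs1, Eci2 and Hadhb, had no value on the Hyp over WT array of set 1.

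Hypertrophic hearts were compared with WT hearts as the other carrier group. Of the 41 genes 0 passed in limma's moderated test, as did 0 of all 12097 features (0%). At an unadjusted p under 0.05, 6 genes were lower (14.6%) and 0 higher, against 1.98% lower, 2.43% higher and 4.41% in either direction among all features. The median change was -0.15 and 36 of 41 lay below 0, against a median of 0.00075 and 5994 of 12097 for all features. Without set 3, in which Agt was not above 0 in Hyp over WT, again 0 passed and the median was -0.18.

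Cpt1a had the smallest p. It was at -0.66, -0.86, -0.45 and 0.0067 in sets 1, 2, 3 and 4 on the Hyp over WT arrays and changed by -0.46 ± 0.11 (adjusted p = 0.871). It was below 0 in sets 1 to 3 and close to 0 in set 4. Slc25a20 followed with -0.84, 0.042, -0.17 and -0.63 in sets 1, 2, 3 and 4 and a change of -0.35 ± 0.085 (adjusted p = 0.871). As in Dil hearts, its low ratios were on the arrays with the carrier mouse in Cy5, here sets 1 and 4. With the displaced column of the set 1 array left as deposited, its change was -0.084. Acadm came next, at -0.20, -0.30, -0.049 and -0.78 in sets 1, 2, 3 and 4, with a change of -0.32 ± 0.11 (adjusted p = 0.999), below 0 on all 4 arrays and lowest in set 4.

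The 8 genes that fell in Dil hearts are given next. Both comparisons use the same WT mice, and the difference between the carrier groups is tested on its own further on. Ech1 was at -0.19, -0.35, -0.29 and 0.29 in sets 1, 2, 3 and 4 on the Hyp over WT arrays, above 0 in set 4, and changed by -0.19 ± 0.14. Decr1 was at -0.31, -0.41, -0.11 and -0.57 in sets 1, 2, 3 and 4 and changed by -0.38 ± 0.16. Hadh was at -0.45, -0.49, -0.28 and -0.096 in sets 1, 2, 3 and 4 and changed by -0.29 ± 0.14. None of these 3 passed, although Decr1 and Hadh were below 0 on all 4 arrays. Acot2 was at -0.38, -0.42, -0.27 and -0.63 in sets 1, 2, 3 and 4 and changed by -0.41 ± 0.15, again below 0 throughout. Crat was at -0.12, -0.52, -0.24 and -0.33 in sets 1, 2, 3 and 4 and changed by -0.26 ± 0.12. Etfdh was at -0.19, -0.15 and -0.40 in sets 2, 3 and 4 and changed by -0.26 ± 0.12. Both were below 0 on every array that measured them. Acaa2 was at -0.32, -0.17, -0.25 and 0.0019 in sets 1, 2, 3 and 4 and changed by -0.22 ± 0.12, with set 4 next to 0.

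Of the other carnitine genes, Cpt2 was at -0.52, -0.43, -0.31 and -0.18 in sets 1, 2, 3 and 4 and changed by -0.32 ± 0.14. Cpt1b was at 0.0017, -0.81, -0.35 and -0.016 in sets 1, 2, 3 and 4 and changed by -0.20 ± 0.15, a value carried by sets 2 and 3. These were the arrays with Hyp in Cy3. Fabp3 was at 0.013, 0.0019, -0.018 and -0.046 in sets 1, 2, 3 and 4 and changed by -0.0075 ± 0.14, the 4 ratios lying close to 0. Fabp4 was at -0.25, -0.71, -0.35 and 0.41 in sets 1, 2, 3 and 4 and changed by -0.18 ± 0.13, with set 4 above 0 and the others below. The 6 carnitine genes had a median of -0.29 and all lay below 0.

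The arrays of Dil over Hyp compare the carrier groups directly. Of the 41 genes 0 passed in limma's moderated test, against 20 of all 12097 features (0.165%), 0.0248% on the lower side. At an unadjusted p under 0.05, 9 genes were lower in Dil (22%) and 0 higher, against 4.37% lower, 5.27% higher and 9.64% in either direction among all features. The median change was -0.11 and 31 of 41 lay below 0, against -0.0037 and 6244 of 12097 for all features. The shift lay in sets 3 and 4: the median of the 41 genes was 0.035, 0.012, -0.30 and -0.26 in sets 1 to 4.

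Ech1 came closest to the threshold. It was at -0.20, -0.48, -1.28 and -0.88 in sets 1, 2, 3 and 4 on the Dil over Hyp arrays and changed by -0.77 ± 0.14, to 0.587 times the Hyp level (adjusted p = 0.0558). All 4 ratios were below 0, and those of sets 3 and 4 were the lowest. It passed with the displaced column as deposited (adjusted p = 0.0481), among features measured on all 11 arrays (0.0493) and without mouse effects (0.0345). Under every other alternative Ech1 did not pass. Its adjusted p was 0.115 with the WT1 and Hyp1 array left out, 0.551 with 1 estimate per set and 0.837 without set 3. Slc25a20 was at 0.21, -0.55, -0.29 and -0.74 in sets 1, 2, 3 and 4 and changed by -0.29 ± 0.085 (adjusted p = 0.257), set 1 lying above 0. As in the other comparisons, its lower ratios were on the arrays with the first-named mouse in Cy5, here sets 2 and 4. Crat was at -0.35, 0.071, -0.65 and -0.81 in sets 1, 2, 3 and 4 and changed by -0.39 ± 0.12 (adjusted p = 0.28), set 2 lying above 0.

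Hadh was at -0.068, -0.075, -0.90 and -0.93 in sets 1, 2, 3 and 4 and changed by -0.45 ± 0.14 (adjusted p = 0.28), near 0 in sets 1 and 2 and far below in the others. Decr1 was at -0.25, 0.25, -0.55 and -0.87 in sets 1, 2, 3 and 4 and changed by -0.39 ± 0.16. Etfdh was at 0.077, -0.14, -0.69 and -0.49 in sets 1, 2, 3 and 4 and changed by -0.31 ± 0.11. Sets 3 and 4 were again the lowest for both. Acaa2 was at -0.0032, 0.13, -0.52 and -0.76 in sets 1, 2, 3 and 4 and changed by -0.32 ± 0.12. Acot2 was at 0.27, -0.0074, -0.54 and -0.93 in sets 1, 2, 3 and 4 and changed by -0.29 ± 0.15. Acadm, near 0 by comparison, was at 0.038, 0.16, -0.33 and -0.45 in sets 1, 2, 3 and 4 and changed by -0.13 ± 0.11.

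Cpt1a was the carnitine gene with a value above 0 in this comparison besides Crot. It was at 0.25, 0.15, 0.33 and -0.024 in sets 1, 2, 3 and 4 and changed by 0.21 ± 0.11 (adjusted p = 0.628), higher in Dil in sets 1 to 3 and close to 0 in set 4. Cpt1b was at -0.42, 0.38, -0.41 and -0.56 in sets 1, 2, 3 and 4 and changed by -0.15 ± 0.15, and set 2 alone was above 0. Cpt2 was at 0.082, 0.18, -0.62 and -0.78 in sets 1, 2, 3 and 4 and changed by -0.24 ± 0.14. Fabp3 was at 0.075, -0.096, -0.52 and 0.44 in sets 1, 2, 3 and 4 and changed by -0.021 ± 0.14. Fabp4 was at -0.041, 0.041, -0.29 and 0.58 in sets 1, 2, 3 and 4 and changed by 0.12 ± 0.13. For both binding proteins the set 4 ratio, with Dil in Cy5, was above 0 and the set 3 ratio, with Dil in Cy3, below 0.

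Other genes of fatty acid metabolism outside the symbol rule were followed through a list of 130, of which 76 were measured. In Dil minus WT 6 of the 76 were lower and 1 was higher, against 1.15% lower and 1% higher among all features. Their median was -0.096 and 56 lay below 0, against a median of 0.0029 and 5920 of 12097 for all features. Without set 3, 0 of all features passed, so none of these 7 calls was kept. The ABC transporter Abcd3, which imports acyl-CoA into peroxisomes, was at -0.70, -0.41 and -0.49 in sets 1, 3 and 4 on the Dil over WT arrays and fell by 0.52 ± 0.084 (adjusted p = 0.0151). Pxmp2, a channel of the peroxisomal membrane, was at -0.29, -0.51 and -1.12 in sets 1, 3 and 4 and fell by 0.65 ± 0.13 (adjusted p = 0.0353). Both lay below 0 on every such array.

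The mitochondrial hydroxyacyl-CoA dehydrogenase Hsd17b10 changed by -0.53 ± 0.11, the methylmalonyl-CoA mutase Mmut by -0.50 ± 0.11 and Aldh9a1, an enzyme of carnitine synthesis, by -0.51 ± 0.11, each at an adjusted p of 0.0412. On the Dil over WT arrays of sets 1, 3 and 4, Hsd17b10 was at -0.36, -0.64 and -0.61. Mmut was at -0.35, -0.43 and -1.02 there, and Aldh9a1 at -0.95, -0.77 and -0.035. The ratio of Aldh9a1 near 0 was the one with Dil in Cy3, as for Slc25a20. Dgat2, which makes triglyceride, was at -0.37, -0.93 and -0.86 in sets 1, 3 and 4 and fell by 0.90 ± 0.20 (adjusted p = 0.0486). Hif1a, the oxygen-regulated transcription factor, was at 0.57, 0.60 and 0.33 in sets 1, 3 and 4 and rose by 0.47 ± 0.080 (adjusted p = 0.02). It was also higher in Dil than in Hyp hearts, at 0.29, 0.54, 0.60 and 0.35 in sets 1, 2, 3 and 4, with a change of 0.46 ± 0.076 (adjusted p = 0.0475), and was the only gene of the list to pass there. That call was lost without set 1, 3 or 4, with 1 estimate per set and with the Dil over Hyp arrays alone, where 0 of all features passed. In Hyp minus WT 0 of the 76 passed in limma's test, with 9 lower and 1 higher at an unadjusted p under 0.05, against 1.98% lower and 2.43% higher among all features. The receptor gene Ppara and the coactivator gene Ppargc1a, regulators of this pathway, changed by -0.050 ± 0.22 and -0.21 ± 0.17 in Dil minus WT. The related coactivator gene Ppargc1b changed by -0.42 ± 0.17 and did not pass. Of the 17 regulators and targets of the list that were measured, 10 lay below 0 and 7 above, with a median of -0.050.

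Markers of the cell types of the ventricle were read beside these changes. Of 13 cardiomyocyte markers 2 were measured: Ttn changed by 0.075 and Ryr2 by -0.33 in Dil minus WT, and neither passed. Of 8 fibroblast markers 7 were measured, 5 above and 2 below 0, with 0 passing. Their median was 0.22, with set medians of -0.19, 0.041, 0.54 and 0.45 in sets 1 to 4, and the largest value was that of Col3a1 (0.62, adjusted p = 0.0975). The fibroblast markers were thus highest in sets 3 and 4, the sets in which the fatty acid oxidation genes were lowest, and their part in the result was not tested. Values of all spots were also more widely spread there. The scaled median absolute deviation on the Dil over WT arrays was 0.335 and 0.354 in sets 3 and 4, against 0.172 in set 1. Endothelial markers (5 of 8 measured) had a median of -0.055 and adipocyte markers (5 of 7) one of -0.051. Macrophage and leukocyte markers (2 of 7) had a median of 0.20, and smooth muscle markers (2 of 4) one of -0.38 with Myh11 at -0.73 (adjusted p = 0.0595). The erythrocyte marker Alas2 was at 0.35. None of these passed.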

How the data were processed

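Per the labels' protocols, RNA of 2 mice was labelled with Cy3 or Cy5 (25 µg per dye) for each cDNA array. The authors deposited 1 log ratio per spot, taken here as log2. The sources used here do not give scanner, background correction or normalization. Column medians lay between -0.0114 and 0.0068. Spot brightness was not used, so the number of arrays limits the precision.

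The WT1 and Hyp1 column was displaced. Its 40 of 46 groups of 12 positions that lay 8 print blocks further on (24 of 24 blocks matched best there) were moved back, and 3840 spots (21.7%) stayed without a value. Control spots (736) were left out and spots of a gene averaged. Spots with several symbols (412, of which 4 had a symbol of the rule) or none stayed unnamed. Features with values on 9 or more arrays numbered 12097 (8106 genes).

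Each feature was fitted by generalised least squares with the 2 carrier contrasts, a dye term and random mice (variance ratio 0.303). The fits were moderated with limma 3.58.1 (R 4.3.3) and adjusted by Benjamini-Hochberg. Residual degrees of freedom count arrays, not mice. In simulated data 67.2% of changes of 0.5, 98.5% of 1 and 100% of 2 were recovered (log2, Dil minus WT, 12097 features). The simulated noise came from the fitted model, with equal spread on all arrays and the same change in every set. The scaled median absolute deviation of the real arrays ran from 0.115 to 0.354, so these percentages need not hold for them. Arrays compare only same-numbered mice, so whether the numbers pair the mice could not be checked from ratios.

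The genes and lists were chosen with earlier results of these data known. Array values are given for genes that passed, the 3 with the smallest p per comparison, the carnitine shuttle, Fabp3 and Fabp4. Of the wider list, genes that passed or had the 5 smallest p are named, and Ppara, Ppargc1a and Ppargc1b were added after their values were seen.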

Additional observations from a re-analysis of the deposited data

Results flagged for a closer look

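Groups of 4 arrays were checked for 34 genes in Hyp over WT and 41 in Dil over Hyp. The median of the genes was checked in both. Genes without a value on all 4 arrays were left out. In 6 groups 1 array stood apart from the other 3, by a test that chance passes in about 1 of 20 groups. Acads was at 0.576 on the Hyp over WT array of set 4, against -0.271 to -0.175 on the others. Crot was at 0.0474 on the same array, against -0.169 to -0.159, and Echdc2 at -0.119, against -0.0286 to -0.0105. The median of the fatty acid oxidation genes was -0.0518 there, against -0.159 to -0.154. Decr2 was at 0.0765 on the Hyp over WT array of set 3, against -0.0534 to -0.0344. Cpt1b was at 0.377 on the Dil over Hyp array of set 2, against -0.559 to -0.406.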

How the results depend on the processing

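The count of fatty acid oxidation genes that passed in Dil minus WT was 8, with 260 of all features. It was 4 (183 features) with the displaced column as deposited, 2 (94) with that array left out, 5 (119) without a dye term, 1 (69) with arrays scaled to the same spread, 0 (7) with the Dil over WT arrays alone and 0 (6) with the replicate block, that is 1 estimate per set. Leaving out 1 set at a time gave 0 to 5 (0 to 119 features), with 0 without set 3 and without set 4. The cause was not tested, although the last alternatives also use fewer arrays. It stayed between 6 and 10 under the other 6 alternatives, among them a wider placement of the displaced column chosen after seeing the data. Ech1 kept its call under 12 of 16 alternatives (adjusted p 0.00867 to 0.230) and Acaa2 under 5 of 16 (0.0312 to 0.357), with the other 6 genes between. In Dil minus Hyp the count of 0 became 1, Ech1, with the displaced column as deposited, with values on all 11 arrays and without mouse effects, where 33, 29 and 52 features passed in place of 20. It was 0 features with the replicate block, with direct arrays alone and without set 1, 3 or 4, and 6 with the WT1 and Hyp1 array left out. In Hyp minus WT 0 genes and 0 features passed under all 16 alternatives. The medians of the 3 comparisons kept their sign under all 16, from -0.30 to -0.17, -0.20 to -0.12 and -0.16 to -0.037. No gene that passed changed sign. Direct arrays alone moved 4 genes in Dil minus WT and 2 in Dil minus Hyp by more than the spread between sets.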

Other observations

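Pdk4, Ucp3 and Angptl4, known targets of peroxisome proliferator-activated receptors in muscle and heart, were singled out of the wider list after their values were seen. Pdk4, which restrains pyruvate dehydrogenase, was at -2.35, -2.08, -0.96 and 0.54 in sets 1, 2, 3 and 4 on the Hyp over WT arrays and changed by -1.08 ± 0.34 (adjusted p = 0.977). It was far below 0 in sets 1 to 3 and above 0 in set 4. On the Dil over WT arrays it was at -0.11, 0.093 and 0.50 in sets 1, 3 and 4 and changed by -0.063 ± 0.36. Ucp3, a mitochondrial carrier, was at -0.80, -1.82, -0.78 and 0.80 in sets 1, 2, 3 and 4 on the Hyp over WT arrays and changed by -0.59 ± 0.27. Angptl4, an inhibitor of lipoprotein lipase, was at -1.26, -0.75, -0.82 and 0.20 in sets 1, 2, 3 and 4 and changed by -0.56 ± 0.21. Both were below 0 in sets 1 to 3 and above 0 in set 4. Cpt1a was likewise below 0 in sets 1 to 3 on these arrays, with set 4 close to 0. On the Dil over WT arrays Ucp3 was at -0.74, -0.32 and 0.22 in sets 1, 3 and 4 and changed by -0.47 ± 0.29, a value near that in Hyp, and Angptl4 was at -0.69, 0.63 and 0.27 in sets 1, 3 and 4 and changed by -0.11 ± 0.22. In Dil minus Hyp the changes were 1.02 ± 0.34 for Pdk4 (adjusted p = 0.319), 0.11 ± 0.27 for Ucp3 and 0.45 ± 0.21 for Angptl4. None of these 4 genes passed in any of the 3 comparisons.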
